A study of Mus musculus with 8 samples.

Results

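The genes that encode the proteins of the cytoplasmic ribosome were followed in *iMLL-AF9* mouse leukemic cells treated with IOX5 or with DMSO. A gene was included when it was protein-coding, was not named as a pseudogene, and had a symbol of the form *Rpl* or *Rps* followed by a number, or was *Rplp0*, *Rplp1*, *Rplp2* or *Rpsa*. This gave 83 genes among all genes counted, 51 of the large (60S) and 32 of the small (40S) subunit. Names and positions are those of GENCODE M21 on GRCm38.

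The series holds 8 poly(A) RNA-seq libraries, 4 labeled DMSO and 4 labeled IOX5, with replicate numbers 1 to 4 in each group. IOX5 is an inhibitor of the HIF prolyl hydroxylases, the oxygen-sensing enzymes that mark hypoxia inducible factors for degradation, and DMSO is its solvent. All 8 samples carry the doxycycline-inducible *MLL-AF9* oncogene, are labeled as wild-type in genotype and as leukemic stem cells of bone marrow, and are called preleukemic in the design text. Dose, duration, age and the origin of the replicates are not given for these samples. The p-values therefore measure the spread between these samples, which may be technical. The libraries were unequally alike. DMSO replicates 3 and 4 differed least, with a chi-square per degree of freedom of 2.16, against 14.3 to 22.6 for the other DMSO pairs. IOX5 replicates 3 and 4 gave 9.17, against 18.6 to 40.8 for the other IOX5 pairs. Whether the 4 libraries of a group are 4 independent samples was not tested.

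Each ribosome contains a single copy of nearly every ribosomal protein, and the genes for them are transcribed at similar high levels in growing cells. Their mRNAs are short and begin with a pyrimidine tract (the 5′ TOP motif), through which mTORC1 and LARP1 control how strongly they are translated. A few ribosomal proteins have a paralog that can take their place. Mammalian genomes also carry many processed pseudogenes of these genes, so that a read from a ribosomal protein mRNA can match more than 1 place. The comparison asks how these mRNAs differ between IOX5-treated and DMSO-treated cells.

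The libraries hold 11351507 to 14116054 reads on genes. Levels are in CPM (reads of a gene per 1e6 reads of the library, TMM-normalized). All 10 progenitor markers that were looked up were detected, with sums of 2456 to 4778 CPM with DMSO and 2859 to 5525 CPM with IOX5. Some differed widely within a group. *Cd34* measured 26.0, 23.2, 133 and 153 CPM in DMSO replicates 1 to 4 and 40.4, 35.4, 225 and 231 CPM in IOX5 replicates 1 to 4. The summed T cell markers lay at or below 0.26 CPM in every library. The summed macrophage markers lay at 148 to 206 CPM with DMSO and 226 to 501 CPM with IOX5. The 8 granulocyte and 7 mast cell and basophil markers all had fold changes above 0, where 52.8% of all genes tested did. Their medians were 0.55 and 0.53 on the log2 scale. No marker of any cell type passed the edgeR quasi-likelihood test. An unadjusted p below 0.05 was held by 2 macrophage markers and 1 granulocyte marker, where 20.2% of all genes tested passed. As many were called higher by DESeq2, where 4.67% of all genes were. With the replicate number as a block, 5 of the 10 progenitor, 6 granulocyte, 7 mast cell and basophil, 2 macrophage and 1 erythroid marker rose, where 11.2% of all genes tested did. The summed erythroid markers lay at 645 to 882 CPM with DMSO and 654 to 893 CPM with IOX5, and the B cell markers, 2 of 5 at 0 throughout, at or below 8.63 CPM. Their part in the ribosomal protein values was not tested. In bulk RNA, fewer cells of a type and less RNA per cell cannot be told apart.

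Ribosomal protein mRNAs were abundant. The 80 genes that passed the low-count filter had a median of 543 CPM in DMSO cells, against 32.0 CPM for all 12405 genes tested. Of the 83 genes, 77 reached 100 CPM or more. Per kilobase of annotated exon the highest level in DMSO cells was that of *Rplp1*, a protein of the stalk that recruits translation factors, at 2330 ± 26.2 CPM per kb (SD, n = 4). *Rplp0*, the base of the stalk, followed at 1081 ± 8.74 and *Rps15*, a protein of the 40S head, at 1076 ± 4.63 CPM per kb. *Rpl4*, which lines the peptide exit tunnel, stood at 1041 ± 4.77 and *Rps3a1* at 951 ± 17.3 CPM per kb. *Rplp0* and *Rps15* did not differ beyond their spread. Exon length here counts every annotated exon of a gene and can exceed its principal mRNA (2027 against 494 bases for *Rps12*). Ranks per kb, here and below, therefore depend on the annotation.

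At the other end, *Rpl24*, *Rps10* and *Rpl13a* had the lowest levels per kb of exon in DMSO cells among the 80 genes tested, although their proteins are ordinary parts of the ribosome. *Rpl24* stood at 1.22 ± 0.363 CPM with DMSO and 1.29 ± 0.0833 CPM with IOX5 (SD, n = 4). *Rps10* stood at 6.72 ± 2.09 and 5.47 ± 1.32 CPM, and *Rpl13a* at 52.9 ± 4.05 and 47.0 ± 3.63 CPM. None passed the test. In each of these 3 genes more than 50% of the 50-base windows of the principal mRNA also lie in another annotated gene of the same locus and strand. These shares were 69.4%, 90.7% and 57.4%. A read within 2 genes is tallied as ambiguous and not counted. In the same order, 77.7%, 83.7% and 22.0% of the windows also lie in a gene elsewhere in the genome. *Gm9385*, which shares the most with *Rpl24* (59.4%), had 1368 reads, against 126 for *Rpl24*. The closest copies of *Rps10* and *Rpl13a* had fewer reads than those genes (22 against 615 and 657 against 5027). The part of either kind of sharing in the low values was not tested. The next lowest were *Rpl22l1* at 58.6 ± 1.69 and *Rpl7l1*, a paralog of *Rpl7*, at 64.4 ± 2.88 CPM per kb.

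3 genes did not pass the filter. *Rpl10l*, a retrogene active in the testis, had 0 reads in every library, which allows up to 0.212 to 0.266 CPM from library to library (3 counts, counting error only). *Rpl39l*, another germline-enriched paralog, had 9 reads in replicate 1 of each group and 0 in the other 6 libraries. *Rpl3l*, a paralog of heart and skeletal muscle, had 1 to 6 reads per library and 31 in all.

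Reads that align to more than 1 place were not counted, so a value may rest on part of an mRNA. The windows used here are shorter than the full read length in the study methods, so their shares need not be those of reads. For the median gene, 53.7% of the 50-base windows of the principal mRNA also occur in a gene elsewhere in the genome, and for 48 of the 83 genes this share is above 50%. *Rps27*, a zinc-binding protein of the 40S subunit, shares 98.6% of its windows, chiefly with *Rps27rt*, and still had 29858 reads. *Rpl3l* and *Rpl39l* share none. Over the 80 genes tested, the share of windows found elsewhere and the log2 fold change with IOX5 were little related (Spearman rho = -0.0443 across genes, which are not independent). The same held for that share and the level per kb of exon with DMSO (rho = -0.053).

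The summed level of the 83 genes was 48808, 49239, 49535 and 49917 CPM in DMSO replicates 1 to 4. In IOX5 replicates 1 to 4 it was 51094, 45399, 48283 and 58136 CPM. The DMSO libraries lay close together, whereas IOX5 replicate 2 lay below all of them and IOX5 replicate 4 above all of them, so that the groups overlapped. The mean sum was 49375 ± 469 CPM with DMSO and 50728 ± 5459 CPM with IOX5 (SD, n = 4), a log2 ratio of 0.04. As a share of reads on genes, the sum took 4.86 to 4.94% with DMSO and 4.50 to 5.76% with IOX5.

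In IOX5 replicates 2 and 4 the shift was shared by most of the genes. In IOX5 replicate 4, 72 of the 80 genes tested lay above the highest DMSO value, where 26.5% of all genes tested did. In IOX5 replicate 2, 61 of the 80 lay below the lowest DMSO value, against 30.8% of all genes. IOX5 replicate 1 had 44 above and 9 below, against 29.8% and 29.2% of all genes. IOX5 replicate 3 had 17 above and 34 below, against 26.5% and 28.6% of all genes. The median deviation of the 80 genes from the DMSO mean was 0.05, -0.12, -0.02 and 0.23 on the log2 scale in IOX5 replicates 1 to 4. That of all genes tested stayed between -0.01 and 0.01. The entries tallied as aligned to more than 1 place stood in the same order as the sums of the 4 IOX5 libraries. As a share of all entries they were highest in replicate 4, at 9.79% in replicate 1, 9.32% in replicate 3 and 9.15% in replicate 2. In DMSO replicates 1 to 4 they were 9.37%, 9.51%, 9.32% and 9.32%, which is not the order of the DMSO sums. Their part in the sums was not tested.

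**Figure D1:**
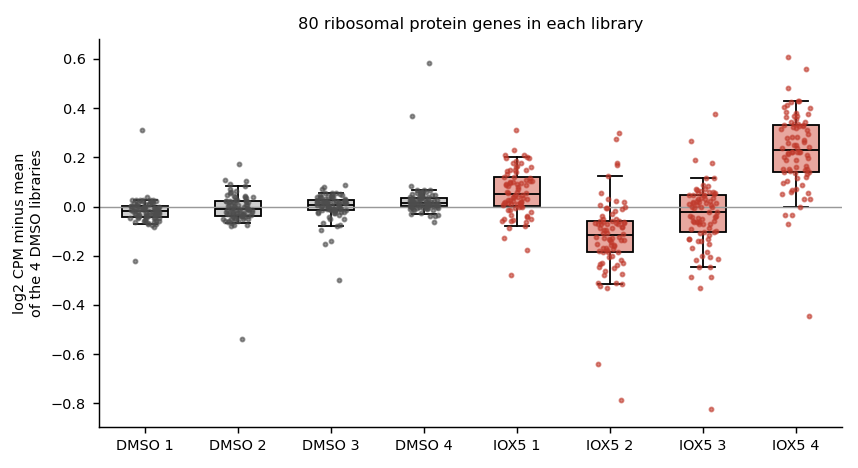
Deviation of each of the 80 tested ribosomal protein genes from its mean in the 4 DMSO libraries, in log2 CPM with 0.1 added, by library. Points are genes, boxes span the middle of the genes with the median as a line, and whiskers run from the 5th to the 95th percentile. The DMSO libraries lie near 0, whereas the median is -0.12 in IOX5 replicate 2 and 0.23 in IOX5 replicate 4.

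The genes varied more among IOX5 libraries than among DMSO libraries. Their median SD of log2 CPM was 0.04 with DMSO and 0.16 with IOX5, and the SD was larger with IOX5 for 76 of 80 genes (95%). Over all genes tested the medians were 0.14 and 0.19, and 67.1% had the larger SD with IOX5. For the 2570 genes of at least 100 CPM on average the medians were 0.08 and 0.14, with 77.5% larger in IOX5. These are descriptions of 4 libraries a group and were not tested.

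Large subunit genes made up 57.3 to 57.7% of the summed CPM with DMSO and 56.6 to 57.2% with IOX5. The groups did not overlap in this share, but only narrowly (lowest DMSO library 57.27%, highest IOX5 library 57.24%). The means were 57.5 ± 0.168% and 56.9 ± 0.301% (SD, n = 4), and the difference was not tested. The median log2 fold change was 0.04 over the 48 large subunit genes and 0.05 over the 32 small subunit genes.

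Gene by gene, differences between IOX5 and DMSO were tested with edgeR's quasi-likelihood test and Benjamini-Hochberg adjustment over 12405 genes, with an adjusted p below 0.05 as the threshold. Of the 80 genes, *Rps29* rose (1 gene, where 0.774% of all genes tested were called higher) and *Rpl22l1* fell (1 gene, where 1.25% of all were called lower). The other 78 did not pass. The labels do not state a pairing, which was inferred from correlated deviations of libraries with the same replicate number. With the number as a block 3 genes rose, where 11.2% of all did, and 1 fell, where 9.43% of all did. The block added *Rps28* and *Rps27l*. With DESeq2, 4 rose (*Rps29*, *Rps28*, *Rplp1* and *Rps27*), where 4.67% of all did, and 1 fell (*Rpl22l1*), where 5.75% of all did. Leaving replicate number 2 out of the block fit gave 10 called higher, where 9.03% of all genes were in the same fit.

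Most fold changes lay close to 0. The median log2 fold change of the 80 was 0.05, against 0.02 for all genes tested. Of the 80, 53 were above 0 and 27 below, where 52.8% of all genes tested were above 0. The fold change was under 0.2 in size for 75 of the 80 genes, against 59.9% of all genes. At an unadjusted p below 0.05 there were 7 of the 80 genes, where 20.2% of all genes tested passed. Of the 80, 3 did not overlap between the groups with IOX5 higher (5.98% of all genes) and 1 with IOX5 lower (8.3% of all genes).

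**Figure D2:**
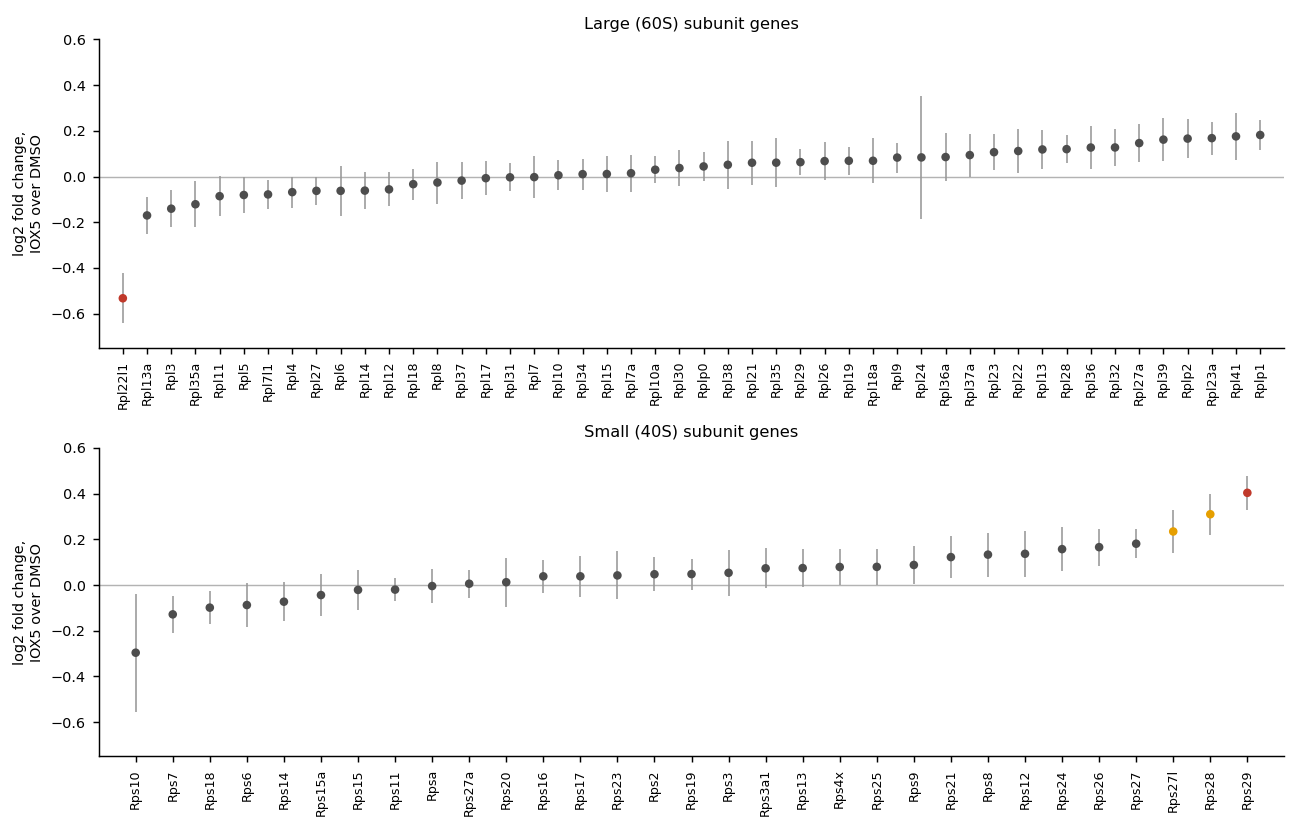
Log2 fold change of IOX5 over DMSO for the large and small subunit genes tested, in order of size, with bars of 1 standard error (1 of the 80 genes is not drawn). Red points passed the test without and with the replicate block (*Rps29* and *Rpl22l1*) and orange points only with it (*Rps28* and *Rps27l*). Most genes lie within 0.2 of 0.

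*Rps29* encodes a small zinc-binding protein of the 40S head and lies on the minus strand at chr12:69157722-69159186. Its level was 374, 372, 372 and 385 CPM in DMSO replicates 1 to 4 and 467, 462, 487 and 573 CPM in IOX5 replicates 1 to 4. Every IOX5 library lay above every DMSO library. The log2 fold change was 0.40 ± 0.07 (SE; adjusted p = 0.0391), and 0.40 with the block (adjusted p = 0.00149). IOX5 was higher in 4 of 4 replicate numbers.

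The *Rps29* call was lost without the block under several settings. After each library was corrected for exon length and GC content, the log2 fold change of *Rps29* was 0.26 (edgeR adjusted p = 0.0642, or 0.0103 with the block). Without a filter on low counts the edgeR adjusted p was 0.0552, and without IOX5 replicates 2 and 4, the libraries that stood apart, the log2 fold change was 0.35 (edgeR adjusted p = 0.0855). Leaving out single libraries gave 0.33 to 0.44, with edgeR adjusted p from 0.027 to 0.132 and 2 of 8 omissions past the threshold. With the block and 1 replicate number left out, all 4 fits passed it.

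*Rps28* is another small protein of the 40S head, next to the mRNA exit, on the minus strand at chr17:33819027-33824562. It measured 322, 321, 345 and 356 CPM with DMSO and 388, 380, 403 and 495 CPM with IOX5. Again no DMSO library reached any IOX5 library. The log2 fold change was 0.31 ± 0.09 (edgeR adjusted p = 0.107), and 0.30 with the block (adjusted p = 0.00695). The block fits without 1 replicate number all passed, with edgeR adjusted p from 0.00169 to 0.0428. Both *Rps28* and *Rps29* are among the genes mutated in Diamond-Blackfan anemia, the inherited failure of red cell production caused by loss of a ribosomal protein.

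*Rps27l* is the paralog of *Rps27* and a known target of p53, at chr9:66946086-66949516 on the plus strand. It measured 171, 204, 178 and 174 CPM with DMSO and 185, 220, 207 and 244 CPM with IOX5. The groups overlapped, because DMSO replicate 2 was above IOX5 replicate 1, but IOX5 was the higher in 4 of 4 replicate numbers. The log2 fold change was 0.23 ± 0.10 (edgeR adjusted p = 0.213), and 0.23 with the block (adjusted p = 0.0413). In the block fits without 1 replicate number, only the fit without number 2 passed (edgeR adjusted p = 0.0107; the others 0.0773 to 0.151). With the length and GC trend removed and the block kept, the log2 fold change was 0.19 (edgeR adjusted p = 0.0752), and without IOX5 replicates 2 and 4 it was 0.12 (edgeR adjusted p = 0.527, no block).

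*Rpl22l1*, the paralog of the RNA-binding protein *Rpl22*, lies on the plus strand at chr3:28805436-28807424. Its level was 113, 121, 116 and 115 CPM with DMSO and 96.2, 74.7, 65.8 and 85.7 CPM with IOX5. All IOX5 libraries lay below all DMSO libraries, IOX5 replicate 4 included, in which most ribosomal protein genes were high. The log2 fold change was -0.53 ± 0.11 (edgeR adjusted p = 0.0481), and -0.54 with the block (adjusted p = 0.00113).

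The *Rpl22l1* call lay near the threshold without the block. With RLE or upper-quartile factors the edgeR adjusted p was 0.0512 and 0.0587, and without IOX5 replicates 2 and 4 the log2 fold change was -0.52 (edgeR adjusted p = 0.129). Leaving out single libraries gave -0.63 to -0.45, with edgeR adjusted p from 0.0431 to 0.138 and 2 of 8 omissions past the threshold. With the block and 1 replicate number left out, all 4 fits passed (edgeR adjusted p 0.000102 to 0.0141). Counting also the reads of *Gm15421*, the gene that shares the most windows with *Rpl22l1* (56.5%), left the log2 fold change at -0.53. That gene had 34 reads in all, against 9963 for *Rpl22l1*.

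**Figure D3:**
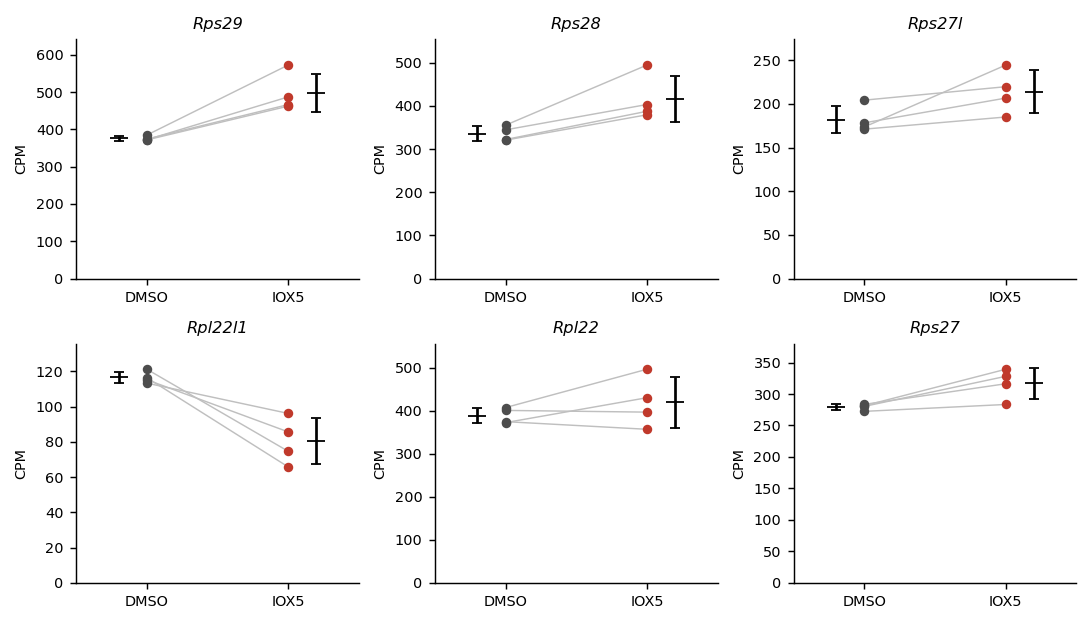
CPM of 4 genes called in either fit and of the base genes *Rpl22* and *Rps27*, by group. Each point is a library, gray lines join libraries of the same replicate number, and the bars beside them give mean and SD (n = 4). *Rps29* and *Rps28* are higher and *Rpl22l1* is lower in every IOX5 library than in any DMSO library.

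Paralog pairs, 4 in all, could be compared within each library, as the log2 ratio of paralog to base gene in CPM with 0.1 added. *Rpl22* measured 373, 375, 401 and 408 CPM with DMSO and 431, 357, 397 and 497 CPM with IOX5, groups that overlapped. Its log2 fold change was 0.11 ± 0.10 (edgeR adjusted p = 0.563). RPL22 is known to hold down the expression of *Rpl22l1*, and it is lost in some leukemias.

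The log2 ratio of *Rpl22l1* to *Rpl22* was -1.72, -1.63, -1.78 and -1.82 in DMSO replicates 1 to 4. In IOX5 replicates 1 to 4 it was -2.16, -2.26, -2.59 and -2.54, and the groups did not overlap. The mean changed from -1.74 ± 0.09 to -2.39 ± 0.21 (SD, n = 4), a difference of -0.65 (two-sided exact permutation p = 0.0286, the smallest that 70 assignments allow; 0.114 after Benjamini-Hochberg adjustment over 4 pairs). Sign flips over the replicate numbers gave an exact p of 0.125, the smallest that 4 pairs allow.

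The other pairs showed smaller differences. The ratio of *Rps27l* to *Rps27* differed by 0.05 (exact permutation p = 0.714), with *Rps27* at 280, 272, 284 and 281 CPM with DMSO and 328, 283, 316 and 339 CPM with IOX5. *Rps27* itself had a log2 fold change of 0.18 ± 0.06 (edgeR adjusted p = 0.163, DESeq2 adjusted p = 0.0462), which was 0.05 with the length and GC trend removed (edgeR adjusted p = 0.714). The ratio of *Rpl7l1* to *Rpl7* differed by -0.07 (exact permutation p = 0.543) and that of *Rpl36al* to *Rpl36a* by 0.02 (exact permutation p = 0.886). All 3 had an adjusted p of 0.886.

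The paralogs themselves differed widely in level. *Rpl36al*, whose symbol lies outside the naming rule, stood at 10.01 ± 0.634 CPM with DMSO, against 267 ± 8.91 CPM for *Rpl36a* (SD, n = 4). *Rpl39*, *Rpl3* and *Rpl10*, the base genes of the paralogs that were near 0, stood at 319 ± 9.31, 1169 ± 28.3 and 590 ± 13.9 CPM. None of them passed the test, with log2 fold changes of 0.16, -0.14 and 0.01. *Rps4l*, annotated as a pseudogene, had 12 reads in all, against 119329 for *Rps4x*.

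The start sites of called genes and their base genes are shown because the pyrimidine tract at the start is the shared feature of these mRNAs. Each line gives 15 bases before and 15 from the RefSeq start (GRCm38.p6), 5′ to 3′ on the strand of the gene, with the longest run of C and T in capitals. *Rps29* had no entry in the table.
Rpl22l1: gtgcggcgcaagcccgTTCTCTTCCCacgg
Rpl22: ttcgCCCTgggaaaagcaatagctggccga
Rps28: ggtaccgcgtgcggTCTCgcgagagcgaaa
Rps27l: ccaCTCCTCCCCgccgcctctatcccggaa
Rps27: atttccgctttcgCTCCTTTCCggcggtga

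The windows lie at chr3:28805493-28805522 (plus strand), chr4:152325711-152325740 (plus), chr17:33824548-33824577 (minus), chr9:66946071-66946100 (plus) and chr3:90213634-90213663 (minus). The run is 10 bases long in *Rpl22l1*, 9 in *Rps27l* and in *Rps27*, and 4 in *Rpl22* and in *Rps28*. It is the longest anywhere in the printed bases and need not be the tract at the start. In *Rps27l* and *Rpl22* it lies wholly before the RefSeq start, outside the annotated mRNA. It spans the start in *Rps28* and *Rps27* and follows it in *Rpl22l1*. A run of at least 8 C or T within 25 bases of a start was found in 33 of the 63 ribosomal protein genes in the table (52.4%), and in 22.3% of all 27025 genes. The RefSeq start lies 72 bases from that of GENCODE in *Rpl22l1* and 16 bases in *Rpl22*, so a run here describes these letters only. All printed bases of *Rpl22* lie before its GENCODE start.

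Fold change was related to the length of the mRNA. The median principal mRNA is 705 bases for the 80 genes and 2640 bases for all genes tested, and the shortest is that of *Rps28* at 271 bases. Across the 80 genes the log2 fold change fell with length (Spearman rho = -0.359), and across the 12397 genes with a length rho was -0.151. Genes of the same libraries share depth and are not independent, and these values are descriptions.

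The lengths were grouped after the values were seen. The 10 shortest, of at most 480 bases, all had fold changes above 0, with a median of 0.15 on the log2 scale. The 10 longest, of at least 1270 bases, had a median of -0.03, and 4 were above 0. The 371 other genes of at most 480 bases had a median of 0.10. *Rpl22l1*, at 552 bases, had a fold change below 0. The length in the length and GC correction was that of all annotated exons of a gene, not of the principal mRNA (1719 bases for *Rps28*). With that exon length and GC trend removed and the block kept, the median log2 fold change of the ribosomal protein genes was -0.06. That of all genes tested was -0.03. A correction for principal mRNA length was not run.

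**Figure D4:**
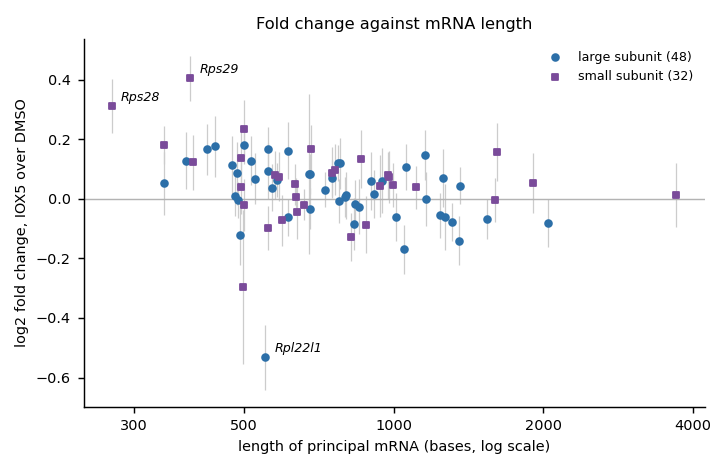
Log2 fold change of IOX5 over DMSO against the length of the principal mRNA, in bases on a log scale, for the 48 large (circles) and 32 small subunit genes (squares) tested, with bars of 1 standard error. The shortest mRNAs lie above 0 (median 0.15 for the 10 shortest), and *Rpl22l1* lies lowest.

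The stalk proteins, which recruit elongation factors to the 60S subunit, did not pass the edgeR test without or with the block. An unadjusted p below 0.05 was held by 1 of 4, where 20.2% of all genes tested passed. *Rplp1* measured 1162, 1182, 1155 and 1153 CPM with DMSO and 1274, 1267, 1261 and 1474 CPM with IOX5, with no overlap. Its log2 fold change was 0.18 ± 0.06 (edgeR adjusted p = 0.161, or 0.0807 with the block; DESeq2 adjusted p = 0.0351). With the length and GC trend removed it was -0.0028 (edgeR adjusted p = 0.985). *Rplp2* gave 0.17, *Rplp0* 0.04 and *Rpl12*, at the stalk base, -0.06. *Rpl5* and *Rpl11*, which carry 5S rRNA into the ribosome and bind MDM2 when assembly fails, gave -0.08 and -0.09 (edgeR adjusted p = 0.622 and 0.628).

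Of 7 genes around the peptide exit, 4 were above 0 and none was called by edgeR (1 at an unadjusted p below 0.05) or by DESeq2. Of 14 genes of the 40S head, 11 were above 0 with a median of 0.04. *Rps29* was called without the block, and *Rps29* and *Rps28* with it and by DESeq2. Of 18 genes of Diamond-Blackfan anemia, 10 were above 0, with a median of 0.02. The calls by edgeR were the same genes, and DESeq2 added *Rps27*. The shares of all genes called higher were 0.774% without the block, 11.2% with it and 4.67% by DESeq2. Of all genes tested, 20.2% had an unadjusted p below 0.05 and 52.8% had a fold change above 0. Among 7 genes linked to leukemia the median was -0.02 and none was called by edgeR (0 at an unadjusted p below 0.05) or by DESeq2. These include *Rps14*, whose loss contributes to the 5q- syndrome (log2 fold change -0.07 ± 0.08), *Rps19* (0.05 ± 0.07), *Rps15* (-0.02 ± 0.09), *Rpl10* (0.01 ± 0.07) and *Rpl22*.

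Ribosomal protein genes named otherwise were few. *Rack1*, a scaffold on the 40S head, had a log2 fold change of -0.01 ± 0.08. *Fau*, which encodes a ribosomal protein fused to a ubiquitin-like protein, gave 0.05 ± 0.06, and *Rpl36al* gave 0.11 ± 0.16. None passed the edgeR test without or with the block (0 at an unadjusted p below 0.05) or the DESeq2 test.

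Of 35 ribosome biogenesis factors, 33 had a log2 fold change below 0, with a median of -0.21. For all genes tested the median was 0.02, and 52.8% were above 0. None passed the edgeR test without the block, although 18 had an unadjusted p below 0.05, where 20.2% of all genes tested did. DESeq2 called 7 lower, where 5.75% of all genes were, and 15 passed as lower with the block, where 9.43% of all did. *Nip7*, a factor of 60S maturation, measured 78.0, 78.9, 72.6 and 79.5 CPM with DMSO and 62.1, 52.9, 61.3 and 69.4 CPM with IOX5. Its log2 fold change was -0.33 ± 0.08 (edgeR adjusted p = 0.0746, or 0.00723 with the block). *Mdn1*, the large ATPase of pre-60S particles, gave -0.33 ± 0.08 (edgeR adjusted p = 0.0766, or 0.00874 with the block). The difference between these factors and the ribosomal protein genes was not tested.

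Regulators of ribosomal protein mRNAs had a median of -0.15 over 15 genes, with 2 lower without the block (1.25% of all genes), 4 with it (9.43% of all) and 4 by DESeq2 (5.75% of all). *Sp1*, a promoter-binding transcription factor, measured 201, 198, 194 and 205 CPM with DMSO and 159, 147, 159 and 137 CPM with IOX5. It fell by 0.41 ± 0.06 on the log2 scale (edgeR adjusted p = 0.0254, or 0.00126 with the block). *Larp4*, which binds poly(A) and stabilizes mRNAs, fell by 0.42 ± 0.09 (edgeR adjusted p = 0.0485, or 0.00111 with the block). Without the block, *Larp4* passed in 0 of 8 omissions of a single library (edgeR adjusted p 0.0569 to 0.158) and *Sp1* in 3 of 8 (0.0285 to 0.113). The *Larp4* call was also lost with RLE or upper-quartile factors (edgeR adjusted p = 0.0549 and 0.0583), without a filter on low counts (0.0679) and with the length and GC trend removed (0.0642). Without IOX5 replicates 2 and 4 neither gene passed (edgeR adjusted p = 0.132 for *Larp4* and 0.0906 for *Sp1*), whereas both passed in all 4 block fits without 1 replicate number.

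Other mRNAs with a TOP motif had a median of -0.11 over 16 genes. There were 0 edgeR calls without the block and 2 lower with it (9.43% of all genes). An unadjusted p below 0.05 was held by 3, where 20.2% of all genes tested passed. DESeq2 called 1 higher (4.67% of all genes) and 1 lower (5.75% of all). *Eef1a1*, the elongation factor that delivers tRNAs, measured 5487, 4908, 5140 and 5144 CPM with DMSO and 4859, 3741, 3700 and 4053 CPM with IOX5. Its log2 fold change was -0.34 ± 0.09 (edgeR adjusted p = 0.0886, or 0.00539 with the block). *Tpt1* stood on the other side, at 0.18 ± 0.06 (edgeR adjusted p = 0.119, or 0.0563 with the block).

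Chaperones that escort single ribosomal proteins had a median of -0.08 over 8 genes. At an unadjusted p below 0.05 there were 2, where 20.2% of all genes passed, and DESeq2 called 1 lower (5.75% of all). In edgeR 2 were lower, with the block only, where 9.43% of all genes were. These were *Heatr3*, which imports RPL5 (-0.30 ± 0.09; edgeR adjusted p = 0.0162 with the block), and *Grwd1*, which escorts RPL3 (-0.35 ± 0.12; edgeR adjusted p = 0.0199 with the block). Of 77 mitochondrial ribosomal protein genes tested, 59 were below 0, with a median of -0.08, where 52.8% of all genes tested were above 0. At an unadjusted p below 0.05 there were 5, where 20.2% of all genes passed. *Mrps5* alone was called, with the block (-0.23 ± 0.07; edgeR adjusted p = 0.0493 with the block, where 9.43% of all genes were called lower), and *Mrpl40* gave -0.22 ± 0.09 (edgeR adjusted p = 0.0567 with the block). *Mrps5* passed in 0 of the 4 block fits without 1 replicate number (edgeR adjusted p 0.0632 to 0.149).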

How the data were processed

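Per the labels and the methods of the study, libraries were directional, from poly(A) RNA, and read from a single end. Reads were trimmed by the authors with Cutadapt 1.18, aligned to GRCm38 with HISAT2 2.2.1 and counted per gene with HTSeq 2.0.1. The deposited values are raw counts per gene, without normalization. A release is stated for the HISAT2 index, but that of the annotation used for counting is not given in the sources used here. Summary lines (20.6 to 22.6% of entries) were left out.

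Of 54838 genes, 54809 were matched to GENCODE M21. Counts were filtered with filterByExpr, scaled by TMM and tested with edgeR 4.0.16 (R 4.3.3) in a fit of group. The SE is the log2 fold change divided by the square root of F. DESeq2 1.42.0 was an alternative. Deviations of libraries with the same replicate number correlated at 0.636 to 0.758 over all genes tested (0.0398 to 0.274 over the ribosomal protein genes), so a fit with the number as a block is given beside the results it changes. Numbers 3 and 4 were not told apart by this correlation (DMSO replicate 4 correlated at 0.685 with IOX5 replicate 3 and 0.636 with IOX5 replicate 4). The code was tested on simulated data.

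The genes, the lists and the genes named were chosen with earlier results of these data known. Named are genes called in either fit, the 5 highest and 5 lowest per kb of exon, genes not passing the filter, paralog pairs, 4 short lists, and the 2 smallest p-values of each other translation list. mRNA lengths and shared windows come from 1 principal transcript per gene. Counting intervals and floors cover counting error only. Results for 2 single genes are not reported here. No further sequence is given for genes absent from the RefSeq table.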

Additional observations from a re-analysis of the deposited data

Results flagged for a closer look

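In groups of 4, a value was singled out when its gap to the nearest other library was too large for the range of the group by Dixon's criterion, which chance does in about 1 of 20 groups. Among 66 groups of ribosomal protein values, 4 held such a library. *Rplp1* stood at 1474 CPM in IOX5 replicate 4, with the other IOX5 libraries at 1261 to 1274 CPM. *Rps29* stood at 385 CPM in DMSO replicate 4, with the other DMSO libraries at 372 to 374 CPM, a gap that is small beside the 462 CPM of the lowest IOX5 library. *Rps3a1* stood at 954 CPM in DMSO replicate 4, with the other DMSO libraries at 919 to 923 CPM. The log2 ratio of *Rps27l* to *Rps27* was -0.41 in DMSO replicate 2, with the other DMSO libraries at -0.71 to -0.67.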

How the results depend on the processing

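The count of ribosomal protein genes called higher with IOX5 was 1 in the reported fit. It was 3 with the replicate block, 4 with DESeq2, and 0 without a filter on low counts, with exon length and GC content corrected for, or (chosen after seeing the data) without IOX5 replicates 2 and 4. With block and correction together it was 2 (9.51% of all genes). Leaving out single libraries gave 0 to 1, and dropping a replicate number from the block fit, an alternative added after the data were seen, gave 2 without number 1, 10 without number 2, 2 without number 3 and 2 without number 4, where 8.07%, 9.03%, 5.14% and 10.9% of all genes were called higher. The count called lower was 1. It was 0 with RLE factors, upper-quartile factors or without IOX5 replicates 2 and 4, 4 with block and correction together (13.4% of all genes), and 0 to 1 without single libraries. Adding the counts of named pseudogenes, or (added later) of the closest copy, left both counts at 1.

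Among the other translation lists, 0 genes were called higher and 2 lower, where 0.774% and 1.25% of all genes tested were. Higher calls were 1 with DESeq2 (4.67% of all genes) and 1 in the block fit without number 2 (9.03%) or number 4 (10.9%). Lower calls were 23 with the replicate block (9.43% of all genes), 13 with DESeq2 (5.75%) and 46 with block and correction together (13.4%). Lower calls were also 8 at an adjusted p below 0.1, and 1 with RLE factors, upper-quartile factors, no filter or the correction alone. They were 0 without IOX5 replicates 2 and 4, 0 to 13 without single libraries, and 13, 14, 7 and 40 in the block fits without numbers 1, 2, 3 and 4, where 5.28%, 8.2%, 3.23% and 8.48% of all genes were called lower.

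The median log2 fold change of the ribosomal protein genes, 0.05, was -0.059 with block and correction together, -0.05 with the correction alone, -0.02 without IOX5 replicate 4 and 0.09 without IOX5 replicate 2. The log2 ratio of summed levels, 0.04, was -0.03 and 0.09 in these omissions. The log2 ratios of the paralog pairs moved by less than their spread in every alternative run. The cause of these differences was not tested, other than that omissions leave fewer libraries. With 4 libraries a group, changes well under the spread of the IOX5 libraries were not detectable.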

Other observations

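Reads on the 298 genes named as pseudogenes of ribosomal protein genes came to 0.301 to 0.335% of the reads of the ribosomal protein genes in the DMSO libraries and 0.336 to 0.358% in the IOX5 libraries. The groups did not overlap in this share, which was not tested.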
